A study of Danio rerio with 3 samples.

Results

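Thin filament and smoothelin-like genes were followed along the wild-type zebrafish heart by tomo-seq, in which a frozen heart is cut into thin sections and the RNA of each section is sequenced apart. With earlier results of these data known, 7 gene rows were chosen by their Ensembl identifiers out of 16023 gene rows in the tables. Each had reads in all 3 hearts. They are the TNNC1 row (ENSDARG00000037539), tnnc2 (ENSDARG00000070835), the ACTC1 row (ENSDARG00000057911), tpma (ENSDARG00000033683), the first of the LMOD2 rows (ENSDARG00000045864), smtnl1 (ENSDARG00000041257) and NEB (ENSDARG00000032630). Symbols in capitals are those of the matching human gene and not zebrafish names.

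The hearts came from untreated TL wild-type embryos at 2 dpf and were dissected live, straightened and frozen, and 40, 48 and 29 sections of 10 µm lay within the labelled tissue of hearts 1, 2 and 3. Heart 1 was cut from the outflow end and hearts 2 and 3 from the inflow end. Sections were assigned to 5 regions that share no section: the arterial pole (sections 2 to 11 of heart 1), the AV canal (19 to 26), the sinoatrial (SA) region (33 to 39), the atrium (27 to 32) and the ventricle (12 to 18), with hearts 2 and 3 placed on heart 1 through the ventricular myosin vmhc and the atrial myosin myh6. The heart is the replicate (n = 3), and levels are reads of a gene per 10000 gene reads of the same section or region.

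The thin filament of striated muscle is a strand of actin wound with tropomyosin and carrying the troponin complex, in which troponin C binds calcium, troponin I holds the filament switched off without calcium and troponin T ties the complex to tropomyosin. Leiomodins start new actin filaments and elongate them at the pointed end, and nebulin runs along the thin filament of skeletal muscle. Smoothelin-like proteins share a domain with smoothelin of smooth muscle, and in mouse SMTNL1 tunes the contractility of smooth muscle.

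Depth differed between hearts and regions. Gene reads came to 5889097, 5243516 and 2590278 in hearts 1, 2 and 3, and 7, 9 and 13 of their sections held fewer than 10000. The shallowest region was the arterial pole of heart 3, with 14700 gene reads, where 3 reads already make 2.04 per 10000. A list of 25 heart muscle rows gave 22.6 and 8.11 reads per 10000 in the arterial pole of hearts 1 and 2, but 414 in that of heart 3. The same list gave 255, 379 and 560 in the atrium of hearts 1, 2 and 3 and 476, 404 and 447 in the ventricle, so the sections placed in the arterial pole of heart 3 read like its chambers. In sections of whole tissue, fewer cells of a type and less RNA per cell cannot be told apart.

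The members came in few sections and in clumps. Over the 117 sections the TNNC1 row had reads in 28, tnnc2 in 20, the ACTC1 row in 51, tpma in 9, the first LMOD2 row in 34, smtnl1 in 26 and NEB in 5. A section with any reads of the TNNC1 row held a median of 29, one with smtnl1 held 17.5, and no section had only 1 or 2 reads of smtnl1. The sources do not say if molecular identifiers were counted, so reads may be PCR copies, and the 95% Wilson limits given below cover counting error only.

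**Figure D1:**
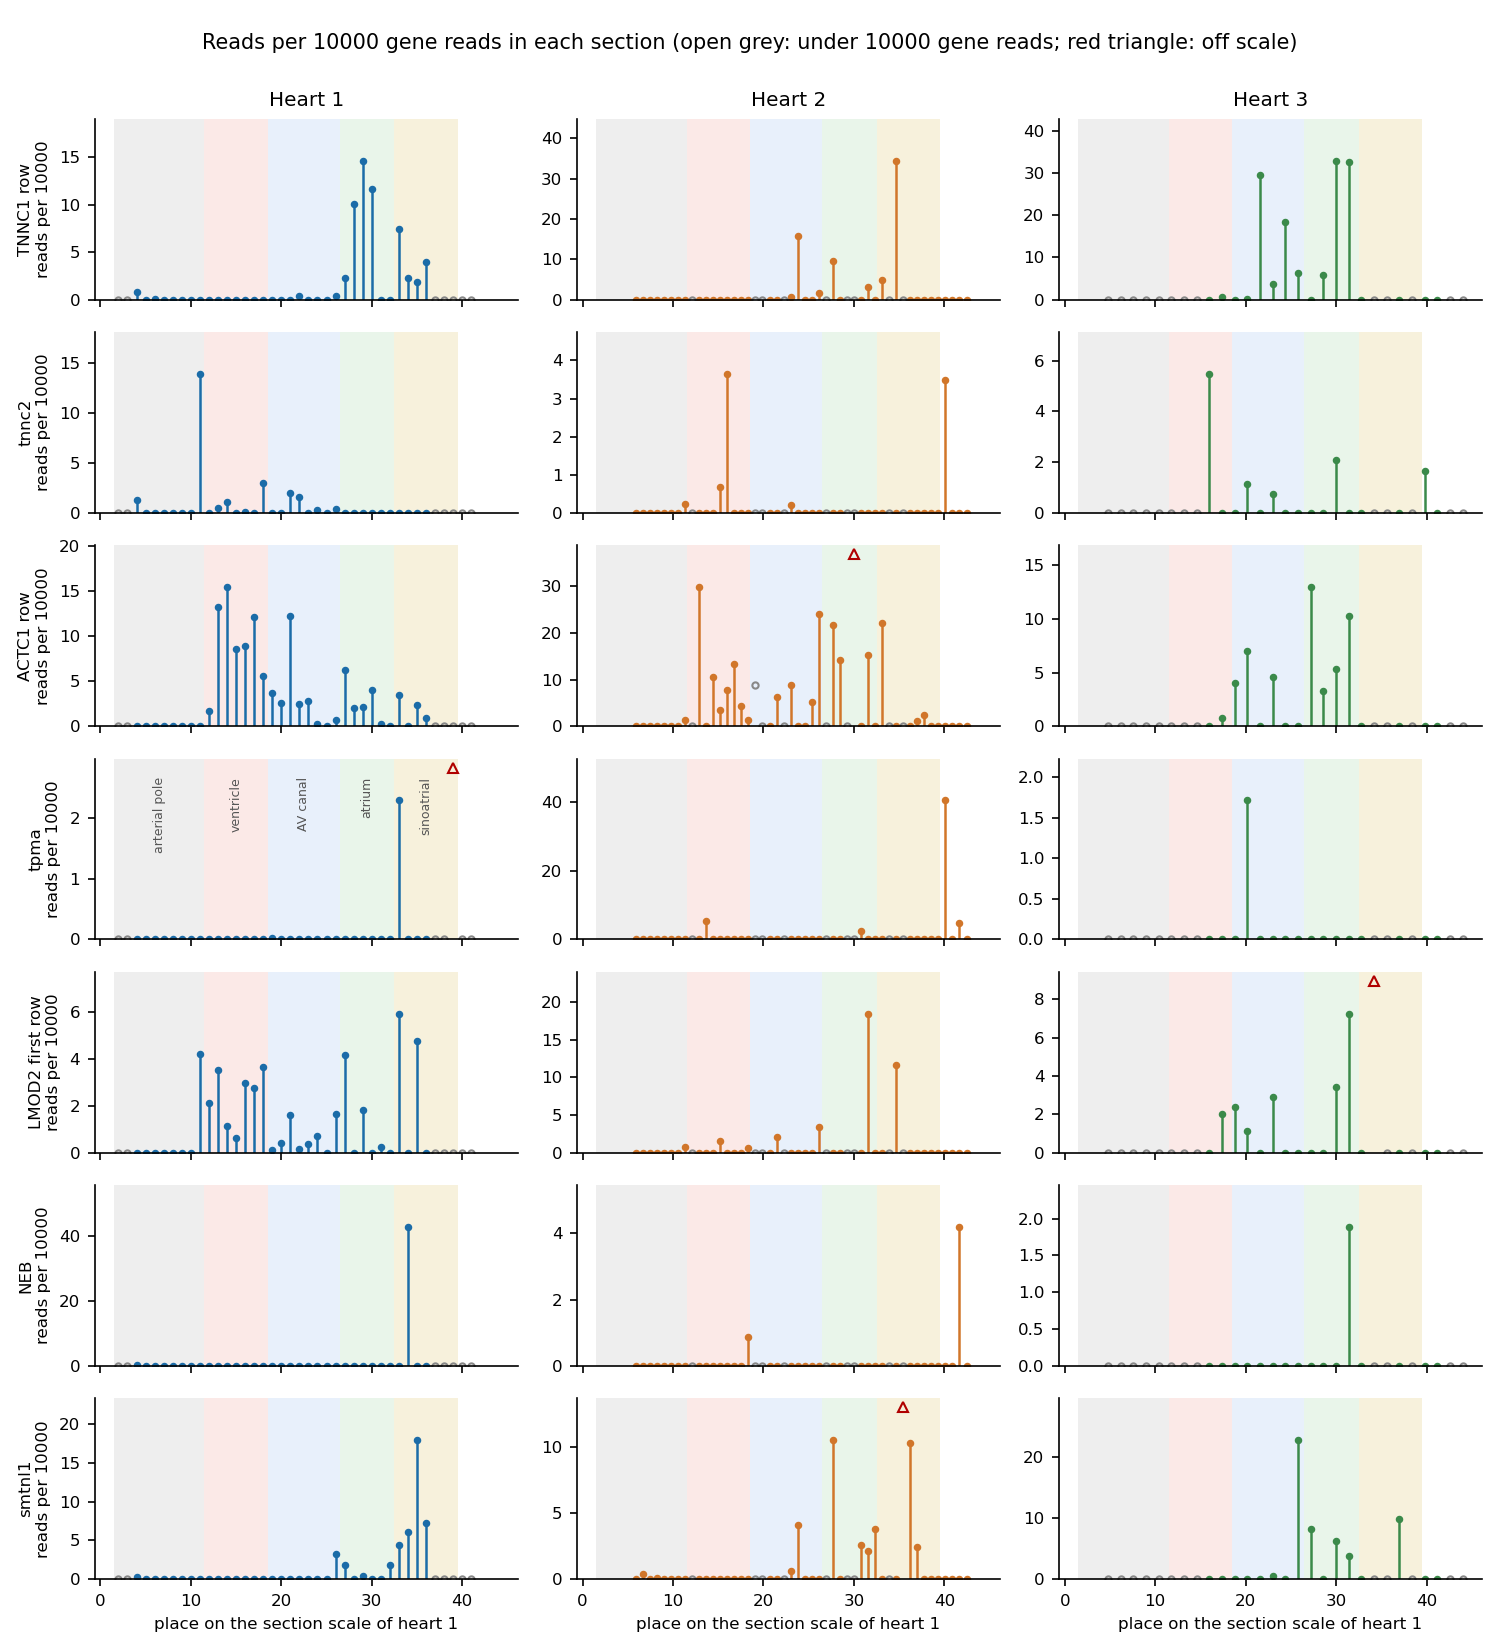
Level of each of the 7 members (rows) in every section of hearts 1, 2 and 3 (columns), in reads per 10000 gene reads, drawn from the arterial to the venous end on the section scale of heart 1, with shaded regions. Open grey points are sections with fewer than 10000 gene reads and red triangles lie off the scale. The TNNC1 row and smtnl1 stand mostly from the AV canal to the SA region, while the ACTC1 row and the first LMOD2 row run through both chambers.

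Among the calcium sensors, the TNNC1 row was read in the atrium of each heart and hardly in the ventricle. TNNC1 in human encodes troponin C of heart and slow skeletal muscle. In heart 1 it gave 7.26 reads per 10000 in the atrium (317 reads, 95% limits 6.50 to 8.11). The ventricle had 0 of 1384396 gene reads, which allows a level of up to 0.0217 with 3 reads as the limit. In heart 2 it gave 3.49 in the atrium (38 reads, 2.54 to 4.79) and 0 in the ventricle, which allows up to 0.0709. In heart 3 it gave 25.4 in the atrium (1014 reads, 23.9 to 27.03) and 0.312 in the ventricle (7 reads, 0.151 to 0.644). The lowest atrium thus lay above the highest ventricle. Taken against 3 reads per ventricle, the level was at least 335-fold higher in the atrium of heart 1 and at least 49.2-fold higher in heart 2. In heart 3 it was 81.5-fold higher (counting interval 39.4 to 203). The folds of hearts 1 and 2 use the level as read in the atrium. They treat reads as independent, so they are no confidence bounds.

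In the other regions the TNNC1 row was less even. The AV canal held 0.0815, 2.03 and 2.28 reads per 10000 in hearts 1, 2 and 3, and the SA region held 5.06, 2.19 and 0, the last in 57203 gene reads, which allows up to 0.524. The arterial pole held 0.273 in heart 1, where 44 of the 47 reads came from section 4, and 0 in the others. By mean level the regions ran from the atrium (12.1 ± 11.7, SD, n = 3) through the SA region (2.42 ± 2.54) and the AV canal (1.47 ± 1.21) to the ventricle (0.104 ± 0.180) and the arterial pole (0.0911 ± 0.158), and each neighbour in that order lay within the spread of the next except the AV canal and the ventricle, whose difference exceeded both SDs.

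Section by section, the TNNC1 row was read mostly from the AV canal to the SA region. In heart 1 it stood at 0.368 in section 26, 2.30 in section 27, 10.1 in section 28 and 14.6 in section 29, the highest of that heart (193 reads). In heart 3 sections 20 and 21 of the atrium held 32.6 and 32.9 (328 and 660 reads), and section 27 of the AV canal held 29.4 (114 reads). In heart 2 the highest level was in section 59 of the SA region, at 34.4, with 53 reads. By level, the highest section thus lay in the atrium of hearts 1 and 3 and in the SA region of heart 2. By reads, the highest section of heart 2 was section 73 of the AV canal, with 54 of its 164 reads.

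The atrium was compared with the ventricle over the 3 hearts by limma voom on reads summed per region, with the heart as a block and adjustment over 5487 genes. The TNNC1 row was higher in the atrium by 8.38 on the log2 scale (SE 1.63, 95% interval 5.19 to 11.57, adjusted p = 0.000495), against a median of -0.35 over all genes tested. Of the 6 members tested, 2 were called, the TNNC1 row and smtnl1, while 8 of 5487 genes or 0.146% were called in all, 5 of them higher in the atrium. The members were chosen with earlier results of these data known, and the paper had shown smtnl1 as higher in the atrium of heart 1. The 2 calls are therefore no independent support. The paper's atrium window overlapped sections counted here as the SA region, where smtnl1 had 304 reads in heart 1 against 37 in the atrium. The paper also showed smtnl1 by in situ hybridization, which does not rest on these counts. The fitted value of the TNNC1 row has the ventricle at 0 in 2 hearts and depends on the prior count. Without heart 1 the adjusted p was 0.390, without heart 2 it was 0.107 and without heart 3 it was 0.0330, and with spike-in reads as library sizes it was 0.894 and by limma-trend 0.164.

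The tnnc2 row, for troponin C of fast skeletal muscle, was read in the ventricle of each heart and in the AV canal of hearts 1 and 3. The AV canal of heart 2 had only 2 reads, under the limit of 3. All 53 ventricle reads of heart 3 lay in section 31. The arterial pole held 0.663, 0.0226 and 0 reads per 10000 in hearts 1, 2 and 3, the AV canal held 0.703, 0.0655 and 0.704, and the SA region held no read in any heart. The atrium had 0 reads in hearts 1 and 2 and 42 reads in heart 3 (1.05 per 10000), against 0.535, 0.591 and 2.36 in the ventricle. In heart 1 the row was not read in any section after section 26. Beyond the SA region at the inflow end, it had 11 reads in section 52 of heart 2 and 11 in section 14 of heart 3. The sections beyond the SA region held 0.881 per 10000 in heart 2, above its ventricle, and 0.420 in heart 3. Its highest level was 13.9 in section 11 of heart 1 (46 reads), at the border of the arterial pole and the ventricle, 3.65 in section 83 of heart 2 (20 reads) and 5.48 in section 31 of heart 3 (53 reads), both in the ventricle. The ventricle mean (1.16 ± 1.04, SD, n = 3) lay above that of the AV canal (0.491 ± 0.368), the atrium (0.351 ± 0.608), the arterial pole (0.228 ± 0.376) and the SA region (0), and each lay within the spread of its neighbour.

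Per heart, tnnc2 was at least 7.78-fold lower in the atrium of heart 1, at least 2.15-fold lower in heart 2, and stood at a ratio of 0.446 in heart 3 (counting interval 0.290 to 0.681). The fitted difference of the atrium from the ventricle was -3.58 on the log2 scale (SE 1.72, adjusted p = 0.561 by limma), which did not pass the test. The levels of the atrium and ventricle overlapped across hearts. The paper names tnnc2 among the genes specific to the ventricle. It compared the ventricle of heart 1 with the rest of that heart, and its ventricle window reached into sections counted here as the AV canal. The direction in heart 3 turned with the placement, to 1.31 in the atrium and 1.04 in the ventricle with its labelled sections stretched in proportion onto those of heart 1, and to 1.41 and 1.04 with placement by medians of raw reads.

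One more troponin C row, tnnc1a (ENSDARG00000011400), was read in every region. The atrium of hearts 1, 2 and 3 held 11.96, 15.5 and 22.2 reads of tnnc1a per 10000, and the ventricle held 20.3, 22.7 and 19.8. Its fitted difference of -0.62 between atrium and ventricle did not pass (SE 1.12, adjusted p = 0.944 by limma). Among the reads of the 3 troponin C rows, the TNNC1 row took 37.8% in the atrium of heart 1 (95% Wilson limits 34.6 to 41.1), 18.4% in heart 2 (13.7 to 24.2) and 52.2% in heart 3 (50.02 to 54.5). In the ventricle it took 0 of 2880 reads in heart 1, which allows up to 0.104%, 0 of 984 in heart 2, which allows up to 0.305%, and 1.39% in heart 3 (0.673 to 2.83).

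In the other regions the shares varied. The TNNC1 row took 29.8% and 46.0% of troponin C reads in the SA region of hearts 1 and 2 and none of 54 in heart 3. In the AV canal it took 0.585%, 8.93% and 7.29%. The tnnc2 row took 2.57%, 2.54% and 10.5% in the ventricle, and 37.5% in the arterial pole of heart 1, where the 3 rows had 304 reads in all. The shares are of reads, not corrected for length, and reads of TNNC1 and tnnc1a may be split between similar sequences, so both are uncertain.

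**Figure D2:**
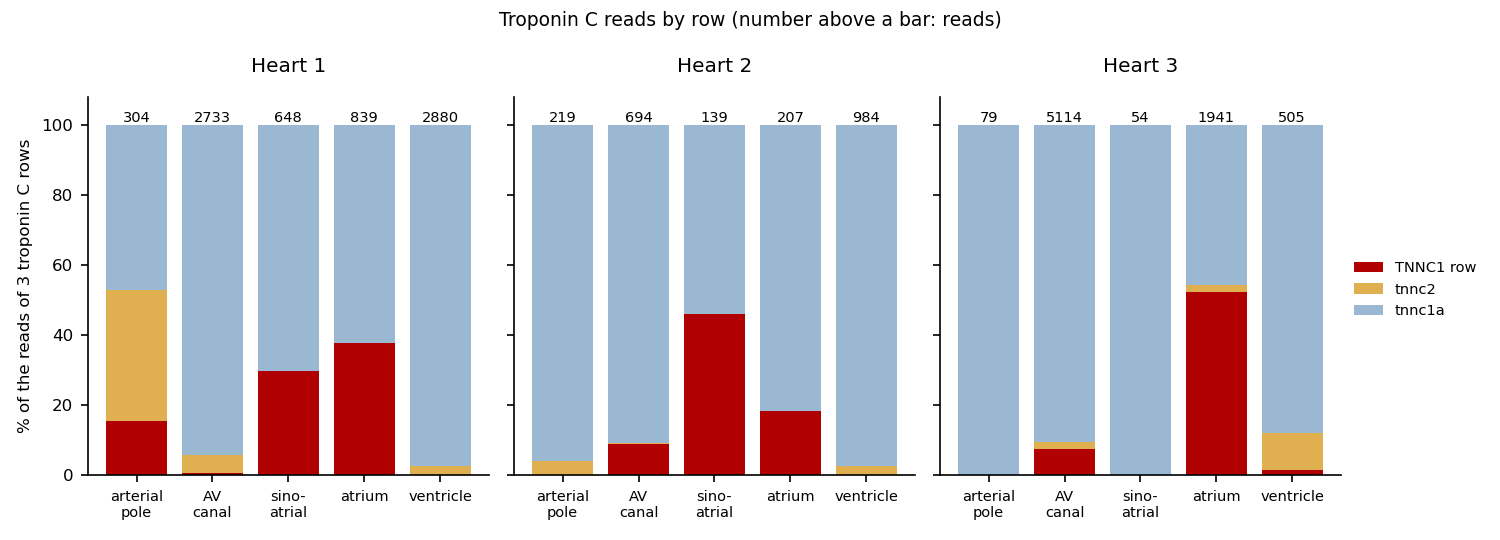
Percent of the reads of the 3 troponin C rows that came from the TNNC1 row, tnnc1a and tnnc2, by region and heart (stacked bars, 100% is the sum of the 3 rows in that region of that heart). The TNNC1 row makes up 37.8%, 18.4% and 52.2% in the atrium of hearts 1, 2 and 3 and 0%, 0% and 1.39% in the ventricle.

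The smtnl1 row was read in the SA region and the atrium of each heart and not in the ventricle of any. In the atrium it gave 0.847 reads per 10000 in heart 1 (37 reads, 95% limits 0.615 to 1.17), 4.40 in heart 2 (48 reads, 3.32 to 5.84) and 5.19 in heart 3 (207 reads, 4.53 to 5.94). In the ventricle it had 0 reads in all 3 hearts, which allows up to 0.0217, 0.0709 and 0.134. Taken against these limits of 3 reads per ventricle, the level was at least 39.1-fold higher in the atrium of heart 1, at least 62.1-fold in heart 2 and at least 38.8-fold in heart 3. With placement by raw reads the ventricle of heart 2 held 33 reads of smtnl1, or 0.0841.

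The SA region held more smtnl1 than the atrium in heart 1 but not in hearts 2 and 3. It gave 7.97 per 10000 in heart 1 (304 reads), 1.13 in heart 2 (33 reads) and 4.72 in heart 3 (27 reads). The AV canal gave 0.352, 0.655 and 0.778, and the arterial pole 0.0698, 0.0827 and 0. The SA region (4.61 ± 3.42, SD, n = 3) and the atrium (3.48 ± 2.31) did not differ beyond their spread, and the AV canal (0.595 ± 0.219) lay below both. That rank of the AV canal depends on the placement. With stretching in proportion heart 2 held 1.66 in the AV canal, 1.56 in the atrium and 1.02 in the SA region. Heart 3 then held 2.58, 5.13 and 0.907. With placement by raw reads the AV canal stayed below both in these hearts. The arterial pole (0.0508 ± 0.0445) lay below the AV canal by more than either SD. Its mean counts heart 3 as 0, where a level of up to 2.04 could not be seen, so that difference is uncertain.

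By section, smtnl1 reached its highest level at different places. In heart 1 it stood at 3.18 in section 26, at the end of the AV canal, at 4.40 in section 33, and at 17.96 in section 35 of the SA region (135 reads). In heart 2 the highest level among sections with at least 10000 gene reads was 10.6 in section 68 of the atrium (35 reads), and in heart 3 it was 22.8 in section 24 (105 reads), which falls in the AV canal beside the atrium. In heart 1, apart from 12 reads in section 4, smtnl1 was read from section 26 to section 36, and tnnc2 from section 4 to section 26.

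The fit over 3 hearts called smtnl1 higher in the atrium than in the ventricle, by 7.87 on the log2 scale (SE 1.71, 95% interval 4.53 to 11.21, adjusted p = 0.00433 by limma). With every ventricle at 0, this fitted value depends on the prior count, and the per-heart bounds above rest on the limit of 3 reads. The call was lost without heart 1 (adjusted p = 0.321), without heart 2 (0.446), without heart 3 (0.124), with spike-in reads as library sizes (0.894) and by limma-trend (0.384). The levels of atrium and ventricle did not overlap for the TNNC1 row and smtnl1, and did not overlap for 409 of 5487 genes or 7.45%.

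The remaining smoothelin rows did not pass this test. SMTNL2 gave 0.252, 0 and 1.25 reads per 10000 in the atrium of hearts 1, 2 and 3 and 0.173, 0.354 and 0 in the ventricle. Smoothelin rows numbered 4, of which 3 entered the test, and smtnl1 was the one called. A list of 13 smooth muscle rows gave 10.0, 36.8 and 21.8 per 10000 in the atrium and 7.87, 12.5 and 10.5 in the ventricle, higher in the atrium in each heart, and its part in the smtnl1 result was not tested.

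**Figure D3:**
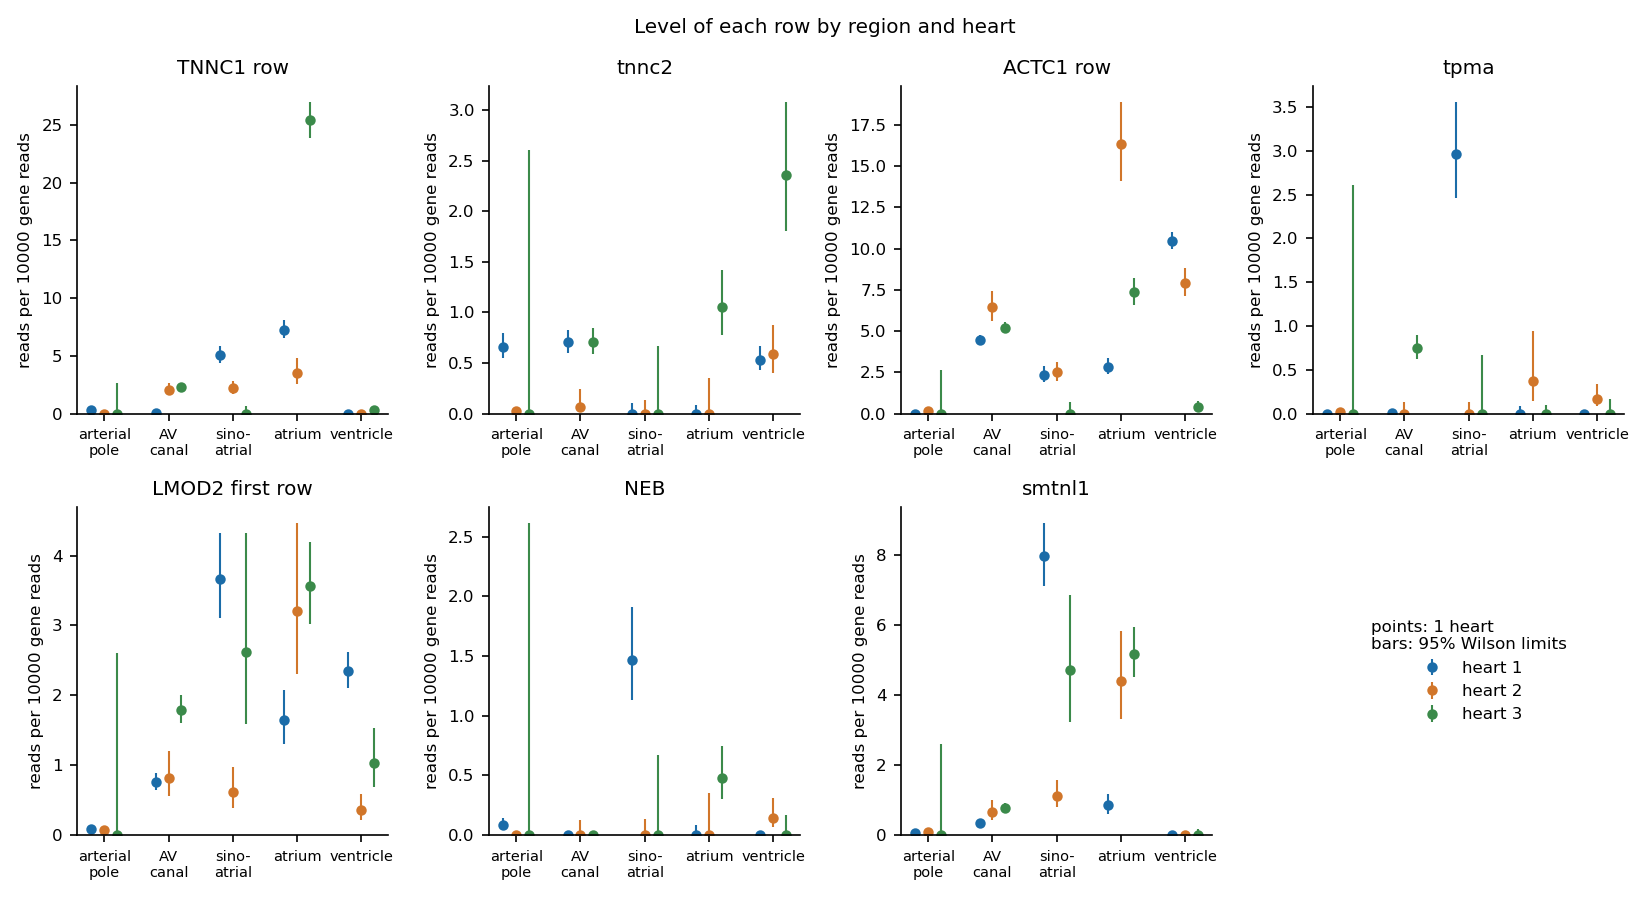
Level of each member by region in hearts 1, 2 and 3, in reads per 10000 gene reads with 95% Wilson limits as bars. For the TNNC1 row the 3 atrial points sit between 3.49 and 25.4 and the 3 ventricular points between 0 and 0.312, and for smtnl1 the atrial points sit between 0.847 and 5.19 with every ventricular point at 0.

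The ACTC1 row, named for the sarcomeric actin of the human heart, was read in both chambers and in the AV canal of each heart. The AV canal gave 4.44, 6.45 and 5.19 reads per 10000 in hearts 1, 2 and 3, and the SA region gave 2.36, 2.50 and 0. The atrium gave 2.84, 16.3 and 7.34, and the ventricle 10.5, 7.94 and 0.401. By mean level the regions ran from the atrium (8.84 ± 6.87, SD, n = 3) through the ventricle (6.27 ± 5.24), the AV canal (5.36 ± 1.02) and the SA region (1.62 ± 1.40) to the arterial pole (0.0493 ± 0.0854). The first 3 lay within their spread while the last 2 each lay below their neighbour by more than either SD. The arterial pole mean counts heart 3 as 0, where a level of up to 2.04 could not be seen, so its difference from the SA region is uncertain. The SA mean also counts heart 3 as 0, in 57203 gene reads. With placement by raw reads heart 3 held 8.48 in the SA region and 3.61 in the AV canal, so that difference depends on the placement. The ratio of the atrium to the ventricle was 0.271, 2.06 and 18.3 in the 3 hearts, so its direction differed between hearts, and the fitted difference of 0.50 did not pass (SE 1.35, adjusted p = 0.944 by limma). The sizes depend on the placement: heart 3 gave 6.57 in the atrium and 5.06 in the ventricle with its tissue stretched in proportion, and 6.37 and 5.10 with placement by raw reads, under which heart 2 gave 15.6 and 0.390.

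Toward the arterial pole the ACTC1 row fell away. Heart 1 had 0 of 1720051 gene reads in the arterial pole, which allows up to 0.0174 per 10000, and heart 2 had 59 reads (0.148, 95% limits 0.115 to 0.191), against 10.5 and 7.94 in their ventricles. The level was at least 601-fold lower in the arterial pole of heart 1 and 53.7-fold lower in heart 2. Heart 3 had 0 reads in its arterial pole, but there a level of up to 2.04 could not be seen, which is above its ventricle at 0.401, so no fold is given. The ventricle of heart 3 stood at 5.06 with stretching and 5.10 with placement by raw reads. The fold of heart 2 depends on the placement too. With stretching heart 2 held 0.375 in the arterial pole and 7.06 in the ventricle. With placement by raw reads it held 0 in 158991 gene reads of the arterial pole and 0.390 in the ventricle.

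The arterial pole was compared with the ventricle in the same fit. The ACTC1 row was lower in the arterial pole, with a fitted difference of -6.57 on the log2 scale (SE 1.55, 95% interval -9.62 to -3.52, adjusted p = 0.0145 by limma), against a median of 0.84 over all genes. It was the 1 member called of 6 tested, and 34 of 5487 genes or 0.62% were called in all, 24 of them lower. Of the heart muscle list, 7 of 22 tested rows were also called lower in the arterial pole. The paper judged the first 10 sections of heart 1 most likely non-myocardial from the heart muscle gene myl7. Lower levels of heart muscle genes in this window are thus partly set by its choice, and the ACTC1 call is no independent support. A list of 20 skin rows gave 42.8, 119 and 85.7 reads per 10000 in the arterial pole of hearts 1, 2 and 3 and 30.6, 32.3 and 50.7 in the ventricle, and the smooth muscle list of 13 rows gave 19.6, 26.2 and 21.1 in the arterial pole and 7.87, 12.5 and 10.5 in the ventricle. In the arterial pole of heart 3 these values rest on 126 reads from 3 skin rows and 31 reads from 1 smooth muscle row. The part of these lists in the ACTC1 result was not tested. The adjusted p was 0.858 without heart 1, 0.249 without heart 2 and 0.00157 without heart 3, and it was 0.996 with spike-in reads as library sizes, 0.189 by limma-trend and 0.0909 with no replicate block.

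Section levels of the ACTC1 row in heart 1 began at 1.63 in section 12, where the ventricle begins, and were 13.3 in section 13 and 15.4 in section 14, the highest of that heart. Beyond the ventricle they were 12.3 in section 21 of the AV canal and 6.27 in section 27 of the atrium. In heart 3 the highest level, 12.96, was in section 23 of the atrium. A near neighbour in the family, actc1a (ENSDARG00000042535), gave 1.19 in the atrium and 4.07 in the ventricle of heart 1, and reads of these actin rows may be split between similar sequences, so both are uncertain.

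The first LMOD2 row, a leiomodin named for the form found in human heart muscle, was also read in both chambers. It gave 0.0814, 0.0752 and 0 reads per 10000 in the arterial pole of hearts 1, 2 and 3, 0.754, 0.819 and 1.79 in the AV canal, and 3.67, 0.616 and 2.62 in the SA region. In the atrium it gave 1.65, 3.21 and 3.56, and in the ventricle 2.35, 0.354 and 1.02. All 35 atrial reads of heart 2 lay in section 63.

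By mean level the first LMOD2 row ran from the atrium (2.81 ± 1.02, SD, n = 3) through the SA region (2.30 ± 1.55), the ventricle (1.24 ± 1.01) and the AV canal (1.12 ± 0.583) to the arterial pole (0.0522 ± 0.0453). Neighbours lay within their spread except for the last pair. That difference is uncertain, as the arterial pole mean counts heart 3 as 0, where a level of up to 2.04 could not be seen. The ratio of the atrium to the ventricle was 0.702, 9.06 and 3.47 in the 3 hearts. The fitted difference was 1.02 (SE 1.49, adjusted p = 0.931 by limma). The arterial pole was 28.8-fold and 4.71-fold lower than the ventricle in hearts 1 and 2, with a fitted -3.41 that did not pass (adjusted p = 0.332).

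The second LMOD2 row (ENSDARG00000045634) was much sparser, with 121, 1 and 6 reads in hearts 1, 2 and 3. Its 121 reads in heart 1 were 18 in the AV canal, 72 in the SA region and 31 in the atrium, with 0 in the ventricle. The pair share a human match and may share reads, so the division between them is uncertain.

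The tpma and NEB rows, known from skeletal muscle, were read in few sections, 9 and 5 of 117. The tpma row, for an alpha-tropomyosin of zebrafish trunk muscle, had 114, 156 and 122 reads in hearts 1, 2 and 3. In heart 1, 73 of them came from section 39, which held only 858 gene reads, and 40 from section 33. In heart 2, 138 reads lay beyond the SA region at the inflow end, 128 of them in section 52, and in heart 3 all 122 lay in section 28 of the AV canal. The row had 0, 4 and 0 reads in the atrium and 0, 7 and 0 in the ventricle, and its fitted difference between them was 0.45 (SE 1.91, adjusted p = 0.966 by limma).

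NEB, for nebulin, had 71, 15 and 19 reads and was removed by the filter on low counts, so it was not tested. In heart 1, 56 reads lay in section 34 of the SA region and 15 in section 4 of the arterial pole. In heart 2, 9 lay in section 50 beyond the SA region and 6 in section 80 of the ventricle, and in heart 3 all 19 lay in section 20 of the atrium. No region held NEB in more than 1 heart.

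Other skeletal muscle genes were read in some of these sections and not in others. A list of 42 skeletal muscle rows that leaves out the members gave 1248 reads from 27 rows in section 4 of heart 1, among them 346 of TNNI2, 85 of atp2a1 and 73 of MYOG, beside 68 reads of tnnc2, 15 of NEB and 44 of the TNNC1 row. In section 52 of heart 2 it gave 224 reads from 11 rows, with 70 of the fast myosin myhz1.2, beside the 128 reads of tpma. In sections 34 and 39 of heart 1, which held most NEB and tpma reads of that heart, the list had 0 reads.

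Ventricle sections with tnnc2 reads also held reads of the skeletal muscle list, which was read in the ventricle as a whole. Sections without tnnc2 were not compared. In heart 1 the tnnc2 reads lay in sections 13, 14, 16 and 18, where the list had reads in 8, 10, 12 and 11 of its 42 rows. Beside 57.4 per 10000 in the whole ventricle of heart 1, the list gave 82.3, 57.4, 54.2 and 63.4 in these sections. MYL1 had 57, 21, 31 and 7 reads there and TNNI2 had 4, 6, 34 and 3, while MYOG and myhz1.1 had 0, atp2a1 had 21 in section 18 and MYOD1 had 13 in section 14. Most list reads were of ckma, ENO3 and ACTA1, as in section 16 with 1058, 417 and 305. Summed over regions, the list gave 29.6, 72.1 and 52.9 reads per 10000 in the atrium of hearts 1, 2 and 3 and 57.4, 47.1 and 49.0 in the ventricle, and its part in the tnnc2 levels was not tested.

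The AV canal was compared with the mean of the atrium and ventricle, to ask whether any member marks the canal. No member was called of 6 tested by limma voom, with adjusted p of 0.628 to 0.957, 0 at an unadjusted p under 0.05, and 0 by either other model (limma-trend and the negative binomial model). In all, 3 of 5487 genes or 0.0547% were called, and the median over all genes was 0.76. The smtnl1 row had the smallest p, with a fitted difference of 2.20 (adjusted p = 0.628). That value averages logs with every ventricle at 0, and on summed reads the ratio of the AV canal to both chambers was 1.73, 0.726 and 0.234 in hearts 1, 2 and 3, lower than the chambers in 2 of them. The counting interval of heart 2 (0.408 to 1.25) includes 1. In heart 1 the ventricle at 0 held 1384396 gene reads and the atrium 436585, so summing weights the ventricle. There the AV canal (0.352 per 10000) lay below the atrium (0.847).

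The SA region, which holds the pacemaker cells, was compared with the atrium. No member was called of 6 tested by limma voom (adjusted p 0.593 to 0.985), 2 had an unadjusted p under 0.05, and 0 were called by either other model, while 1 of 5487 genes or 0.0182% was called in all. The first of them was the TNNC1 row, with a fitted difference of -3.26 (adjusted p = 0.593), a ratio of 0.697 in heart 1 (counting interval 0.580 to 0.836) and 0.628 in heart 2 (0.414 to 0.965), and a level at least 48.5-fold lower in heart 3. With placement by raw reads heart 3 instead held 27.01 reads of the TNNC1 row per 10000 in the SA region and 22.99 in the atrium. The other was the ACTC1 row, at -3.05 (adjusted p = 0.617). Its ratio was 0.831 in heart 1 (counting interval 0.626 to 1.098) and 0.153 in heart 2 (0.115 to 0.202). In heart 3 its level was at least 14-fold lower. This direction in heart 3 depends on the placement. By raw reads, heart 3 held 8.48 reads of the ACTC1 row per 10000 in the SA region and 6.37 in the atrium. At an unadjusted p under 0.05 stood 437 of 5487 genes.

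The heart muscle list gave 240, 104 and 174 reads per 10000 in the SA region of hearts 1, 2 and 3 and 255, 379 and 560 in the atrium, lower in each heart. The skin list gave 46.3, 160 and 145 in the SA region and 31.2, 34.4 and 52.5 in the atrium, higher in each heart. The part of either in the members' levels was not tested.

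The ratio of the SA region to the atrium for smtnl1 was 9.40 in heart 1 (counting interval 6.67 to 13.6), 0.256 in heart 2 (0.159 to 0.408) and 0.910 in heart 3 (0.585 to 1.36). The direction thus differed between hearts 1 and 2 beyond these intervals, which take reads as independent. The sizes in hearts 2 and 3 depend on the placement. With stretching in proportion heart 2 held 1.02 reads per 10000 in the SA region and 1.56 in the atrium (13 reads). Heart 3 then held 0.907 and 5.13, and with placement by raw reads 3.13 and 5.66. All 27 reads in the SA region of heart 3 lay in section 16. The ratio for the first LMOD2 row was 2.23, 0.192 and 0.737, and it too differed in direction between hearts 1 and 2. In heart 3 it rests on 15 SA reads, all in section 18, which held 7477 gene reads. Its direction there depends on the placement. With stretching heart 3 held 0 in the SA region and 4.91 in the atrium, and with placement by raw reads 7.25 and 2.31.

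**Figure D4:**
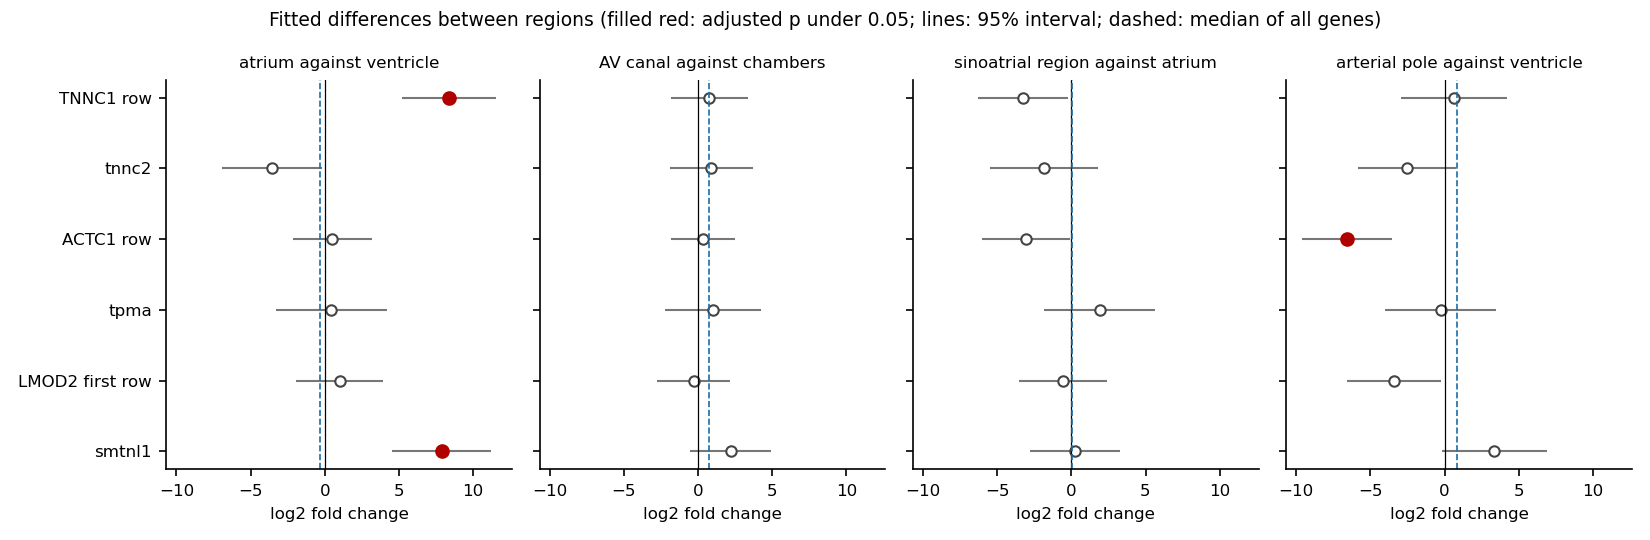
Fitted log2 difference with its 95% interval for the 6 members tested, in the 4 comparisons of regions over 3 hearts (limma voom); the dashed line is the median of all 5487 genes. Filled points passed at an adjusted p under 0.05, which are the TNNC1 row (8.38) and smtnl1 (7.87) for the atrium over the ventricle and the ACTC1 row (-6.57) for the arterial pole over the ventricle.

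Of 49 thin filament rows on the list 30 were tested, and between atrium and ventricle limma voom called 2 higher, the TNNC1 row and smtnl1, and 0 lower, with a median of -0.04 beside -0.35 over all genes. Without the members, 24 rows were tested, and limma voom and limma-trend called 0 of them in each of the 4 comparisons, with 1, 2, 1 and 7 at an unadjusted p under 0.05 for the atrium, AV canal, SA region and arterial pole. Over all 5487 genes that threshold was passed by 453, 521, 437 and 705. The negative binomial model called 0, 1, 0 and 1 of the 24, where it called 172, 349, 162 and 209 of all genes. These were tpm1, a tropomyosin, lower in the AV canal than in the chambers (adjusted p = 0.0354, and 0.386 by limma voom), and acta2, the actin of smooth muscle, lower in the arterial pole than in the ventricle (adjusted p = 0.0188, and 0.105 by limma voom).

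The main troponin and tropomyosin rows of heart muscle ran through both chambers. TNNT2, for troponin T, gave 22.1, 20.1 and 39.9 reads per 10000 in the atrium of hearts 1, 2 and 3 and 37.4, 24.1 and 50.4 in the ventricle. The tpm4a row, for the tropomyosin of the zebrafish heart, gave 51.01, 75.6 and 107.6 in the atrium and 81.7, 75.6 and 47.1 in the ventricle. Fitted differences were -0.69 for TNNT2 (SE 1.03, adjusted p = 0.932 by limma) and -0.09 for tpm4a (SE 0.93, adjusted p = 0.989), and their intervals are drawn in the plot of thin filament rows.

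**Figure D5:**
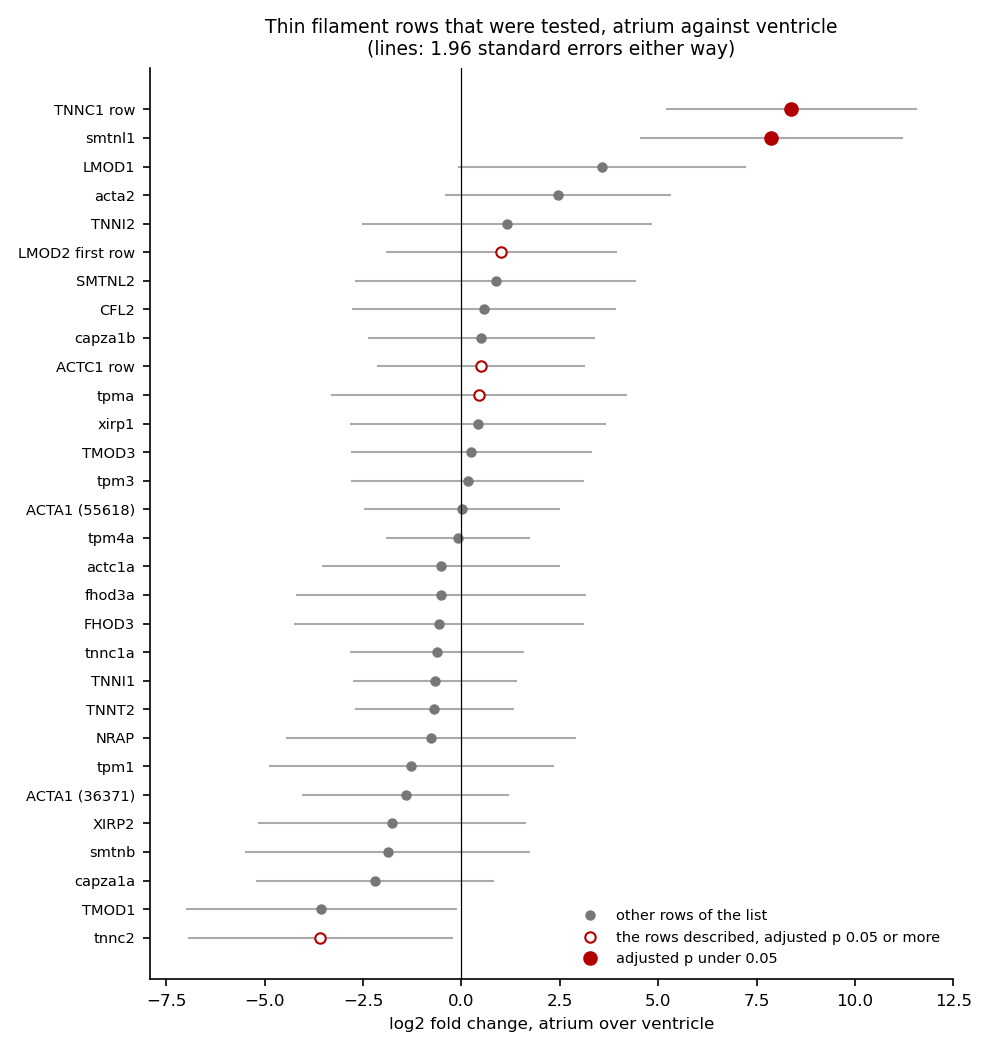
Fitted log2 difference of the atrium over the ventricle, with its 95% interval, for the 30 tested rows of the thin filament list (limma voom, n = 3 hearts). The TNNC1 row at 8.38 and smtnl1 at 7.87 are the rows that passed, and the list's median is -0.04.

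The genes most like each member were taken as those with the highest Pearson r over the 15 sums of region and heart, which share libraries and depth, so r is a description only. The TNNC1 row lay closest to APCDD1L (0.83), myh6 (0.81) and shisa10.1 (0.81), and smtnl1 to myh6 (0.87), TBX2 (0.85) and alpi.1 (0.82). The ACTC1 row lay closest to npdc1b (0.94), CACNA1C (0.93) and myh7bb (0.93), and the first LMOD2 row to si:dkey-164f24.2 (0.94), ENSDARG00000019202 (0.94) and RBPMS2 (0.93). The tnnc2 row lay closest to SFXN3 (0.94), ACSS2 (0.91) and ENSDARG00000041088 (0.91). Since myh6 placed hearts 2 and 3, its likeness to the TNNC1 row and smtnl1 is partly set by the placement.

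The sparse members had neighbours resting on few reads, with tpma closest to ENSDARG00000096611 (0.89), COLQ (0.88) and SHC1 (0.80), and NEB closest to RREB1 (0.83), MIF (0.80) and MYLK (0.79). Among the members, r was 0.71 between the ACTC1 row and the first LMOD2 row, 0.67 between the TNNC1 row and smtnl1, 0.62 between the first LMOD2 row and smtnl1, and -0.44 between tnnc2 and smtnl1, over the same 15 sums.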

How the data were processed

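The authors isolated RNA from single 10 µm cryosections, added ERCC spike-in RNA, made barcoded libraries and sequenced them on a NextSeq, and the processing notes name BWA 0.6.2. The genome was Zv9. The deposited tables hold whole-number read counts per gene and section, not normalized, as seen from the values. Spike-in rows were left out of totals, and 171 columns outside the labelled tissue were left out. For heart 1, the order of columns 17 to 24 was reversed, as the labels ask. Of 16023 gene rows, 80.5% had a symbol in the name table.

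Hearts 2 and 3 were placed by a straight line through the median sections of vmhc and myh6 weighted by level (16 and 30 in heart 1, 83 and 65 in heart 2, 31 and 21 in heart 3). The plan weighted by raw reads, and the change was made after the data were seen. The placement genes are no findings. The section limits of the regions are those the study gives for heart 1, with overlaps removed.

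Counts were summed per region and heart into 15 sums. Rows needed a count equivalent to 10 in the median sum in at least 3 sums and a total of at least 15, which left 5487. They were scaled by trimmed means of M-values written for this work and fitted by limma voom 3.58.1 in R 4.3.3 (region plus heart, two-sided, Benjamini-Hochberg over all rows, called at an adjusted p under 0.05). The heart is a block because all regions come from the same animals. The plan named edgeR, which was not run, because the automatic unit check found no numbers in the tab-separated tables and barred count tools; limma was used instead of it. A negative binomial model with 1 dispersion (1.281), chosen after the data were seen, and limma-trend (prior count 2) were alternatives. The fits were tested on simulated data. A p that misses the threshold does not show that levels were equal. A level of 0 is given the limit that 3 reads allow, and folds against 0 use 3 reads per region sum. Such folds take the other level as read and are no confidence bounds. Intervals are 95% Wilson limits, or counting intervals for ratios. Named genes are the 7 members, called genes of the thin filament list and the 3 nearest genes of each member with at least 30 reads per heart; rows named for context (tnnc1a, SMTNL2, actc1a, TNNT2, tpm4a, tpm1, acta2 and the second LMOD2 row) were chosen after their values were seen. Members and gene lists were chosen with earlier results of these data known.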

Additional observations from a re-analysis of the deposited data

How the results depend on the processing

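The direction of the 3 called members did not reverse under any of the 14 settings. The TNNC1 row kept its call under 10 of them, smtnl1 under 9 and the ACTC1 row under 9. Fitted differences were 5.32 to 9.24, 6.38 to 9.79 and -8.54 to -3.92. The range for smtnl1 leaves out the negative binomial model, which gave 29.5. With every ventricle at 0, the size of that value cannot be read. Members called between atrium and ventricle were 0 with spike-in reads as library sizes and 0 by limma-trend, against 2, and 0 to 1 with 1 heart left out. Members called between arterial pole and ventricle were 0 with spike-in reads, 0 with no replicate block and 0 by limma-trend, against 1, and 0 to 1 with 1 heart left out. Genes called in all, against 8, 3, 1 and 34 for the atrium, AV canal, SA region and arterial pole comparisons, moved as follows. Total gene reads gave 5, 0 and 64 for the atrium, AV canal and arterial pole, and spike-in reads gave 0 in each. No filter gave 33, 25, 11 and 103. No replicate block gave 4, 0, 0 and 4. The study's windows gave 49, 7, 4 and 128, and stretching in proportion gave 19, 1, 0 and 93. Without the row with most reads the arterial pole count was 62. The limma-trend fit gave 2, 0, 0 and 9, and the negative binomial model 172, 349, 162 and 209. Placement by raw reads gave 16 and 1 for the atrium and AV canal, and leaving out sums under 100000 reads gave 27, 38, 4 and 321. Leaving out 1 heart gave 0 to 8, 0 to 2, 0 to 2 and 0 to 299, the last 2, 0 and 299 without hearts 1, 2 and 3. The cause was not tested. Hearts with a higher level in the atrium were 0 for tnnc2, 1 with stretching and 1 with raw-read placement, 1 for tpma and 0 with the mean of section levels, and 1 for NEB and 0 with raw-read placement. The DESeq2 alternative was not run. Depth limits the arterial pole of heart 3, with 14700 gene reads, and the SA region there, with 57203.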
